A study of Mus musculus with 6 samples.

Results

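The receptors, ligands and feedback inhibitor of the EGF receptor family, together with the HGF receptor Met, were examined in the liver of Mir137-/- mice. The 8 genes were chosen by name (Egfr, Erbb2, Erbb3, Errfi1, Hbegf, Areg, Btc and Met). They were selected from results of the same genotype contrast, so their differences between genotypes are given as a description, without p values. On the array, 18193 genes had a probe set annotated with exactly 1 gene symbol. Of the 8 genes, 7 were among them, with 18 probe sets in all. No probe set carried the single symbol Areg, so the expression of amphiregulin was not analysed here. Every probe set is given on its own, because the 7 probe sets of Egfr did not give the same difference.

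RNA came from whole liver at postnatal day 14 (P14), with 3 Mir137-/- and 3 Mir137+/+ mice and 1 liver per array. The Mir137-/- mice lack miR-137 in every tissue: Cre recombination removed the exons that hold the microRNA in embryonic stem cells, and the line was taken on with C57BL/6 mice. Homozygous knockout pups and their wild-type counterparts came from matings of heterozygotes. Because the deletion is constitutive, a change in liver is not restricted to loss of miR-137 in liver cells. Expression is given on the log2 scale of the deposited array summaries, and every difference is Mir137-/- minus Mir137+/+.

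The EGF receptor is a tyrosine kinase that is activated when a ligand such as EGF, TGF-alpha, amphiregulin, HB-EGF or betacellulin binds and the receptor pairs with another member of the ErbB family. ErbB2 has no known ligand of its own and serves as a partner, whereas ErbB3 binds neuregulins and has little kinase activity. Activated receptors signal through RAS-ERK, PI3K and STAT proteins, and Errfi1 (MIG6) is a feedback inhibitor that binds the kinase. Hepatocytes carry abundant EGF receptor, and in liver it is known, with Met, for driving hepatocyte proliferation in regeneration.

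The mature product of the deleted gene is shown with its seed (bases 2 to 8) in capitals, since it is the sequence that the Mir137-/- mice lack. It was taken from RefSeq (GRCm38.p6, chr3:118433901-118433923, plus strand).
mmu-miR-137-3p: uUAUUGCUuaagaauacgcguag

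The promoters of Egfr and Met are shown as the 300 bases that run from 250 bases before the annotated start site to 50 bases after it. Egfr held the largest difference among the members, and Met is the member receptor from outside the ErbB family. The windows are from RefSeq (GRCm38.p6, chr11:16751953-16752252 and chr6:17463707-17464006, both on the plus strand). Capitals mark matches on either strand to any of 5 motifs, which are spelled out after the sequences.
Egfr promoter: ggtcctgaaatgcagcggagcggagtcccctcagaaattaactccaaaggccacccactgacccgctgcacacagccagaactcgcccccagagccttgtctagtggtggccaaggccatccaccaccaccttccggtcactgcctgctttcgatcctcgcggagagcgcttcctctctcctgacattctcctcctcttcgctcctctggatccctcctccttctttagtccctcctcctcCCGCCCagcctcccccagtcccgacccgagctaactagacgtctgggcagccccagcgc
Met promoter: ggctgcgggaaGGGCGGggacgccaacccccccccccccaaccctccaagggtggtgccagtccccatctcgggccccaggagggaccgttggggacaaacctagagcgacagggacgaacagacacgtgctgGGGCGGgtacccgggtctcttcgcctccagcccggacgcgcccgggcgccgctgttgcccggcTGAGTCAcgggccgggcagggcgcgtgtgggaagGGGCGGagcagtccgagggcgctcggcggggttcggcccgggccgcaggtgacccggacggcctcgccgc

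The Egfr window held 1 GC box (the letters GGGCGG), on the minus strand, 9 bases before the start site. The Met window held 3 GC boxes and 1 match to the AP-1 motif (the letters TGANTCA), and its GC content was 75.7%, against 62.3% in the Egfr window and a median of 52.7% over all 32851 promoters in the table. None of the matches overlapped another in these windows. The GC box was present in 35.7% of all promoters of this length and the AP-1 motif in 7.81%. The STAT5 motif, searched as TTCNNNGAA, was present in 8.30% of them. The motif of the EGR factors, searched as GCGNGGGCG, was present in 5.55%, and the TATA box, searched as TATAAA, in 13.6%. No STAT5 or EGR match lay in any of the 7 windows searched for Egfr, Erbb2, Errfi1, Areg, Btc and Met, which says only that these letters are not in these windows. No window of Erbb3 or Hbegf was searched. The TATA box letters occurred 28 bases before 1 of the 2 annotated start sites of Errfi1 and 31 bases before that of Areg.

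Some array-wide facts bear on every value that follows. The methods name male mice, yet Xist, which is transcribed from the inactive X chromosome of females, read 10.91 on Mir137+/+ replicate 2 and 10.81 on Mir137+/+ replicate 3. It lay between 3.66 and 4.24 elsewhere. The Y-linked Eif2s3y went the other way, at 2.06 and 2.51 on those arrays and at 8.46 to 8.62 elsewhere. By these transcripts all 3 Mir137-/- arrays and Mir137+/+ replicate 1 read as male, so sex and genotype are partly confounded. Skeletal muscle transcripts were high on Mir137-/- replicate 1 (Acta1 at 11.38), and pancreas transcripts were high on replicate 2 of both genotypes (Cpb1 at 9.53 on the Mir137-/- array and at 7.84 on the Mir137+/+ array). All 8 measured hepatocyte markers lay above the array median, and Alb was at 13.71 to 13.79. For Actb, the 3′ control exceeded the 5′ control by 0.60 to 0.83 (log2) in Mir137-/- and by 0.69 to 0.82 in Mir137+/+ liver, so the genotypes overlapped.

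Egfr was lower in Mir137-/- liver by some of its probe sets and not by others. The probe set 1435888_at, the brightest of the 7, read 9.29, 8.77 and 8.92 in Mir137-/- and 10.31, 10.60 and 10.11 in Mir137+/+ liver. All 3 Mir137-/- arrays lay below all 3 Mir137+/+ arrays. The means were 8.99 ± 0.27 in Mir137-/- and 10.34 ± 0.25 in Mir137+/+ liver (SD, n = 3 each), a difference of -1.35 (SE 0.17), so that the knockout level was 39.3% of the wild-type level on the linear scale. In whole liver, fewer cells that express a gene and less of its RNA per cell cannot be told apart.

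A pair of probe sets designed from one shared database entry gave a smaller difference in the same direction. For 1424932_at the values were 8.79, 8.77 and 8.59 in Mir137-/- against 9.31, 9.58 and 9.05 in Mir137+/+ liver, a difference of -0.60 (SE 0.14). For 1451530_at they were 6.39, 6.15 and 6.17 in Mir137-/- against 6.88, 7.03 and 6.56 in Mir137+/+ liver, a difference of -0.59 (SE 0.14). These amounted to 66.1% and 66.6% of the wild-type level, and in neither probe set did the groups overlap. On all 3 probe sets with a lower level, Mir137-/- replicate 1 was the highest of its group, Mir137+/+ replicate 2 the highest of the wild type and Mir137+/+ replicate 3 the lowest of the wild type.

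The other 4 Egfr probe sets overlapped between the genotypes. The third brightest, 1460420_a_at, read 8.75, 8.54 and 8.45 in Mir137-/- and 8.78, 8.46 and 8.73 in Mir137+/+ liver, a difference of -0.08 (SE 0.13). This probe set lay above the upper quartile of the arrays. A further pair, designed from another shared entry, was dimmer. It read 5.37, 4.98 and 5.27 in Mir137-/- and 5.30, 5.80 and 5.29 in Mir137+/+ liver for 1454313_at (-0.26, SE 0.16). For 1432647_at it read 5.24, 5.39 and 5.42 in Mir137-/- and 5.52, 4.89 and 5.38 in Mir137+/+ liver (0.09, SE 0.16), so the sign differed within the pair. The dimmest, 1457563_at, read 2.76, 3.15 and 3.13 in Mir137-/- and 3.68, 2.70 and 3.07 in Mir137+/+ liver, a difference of -0.14 (SE 0.23) at a level below the lower quartile of the arrays.

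**Figure D1:**
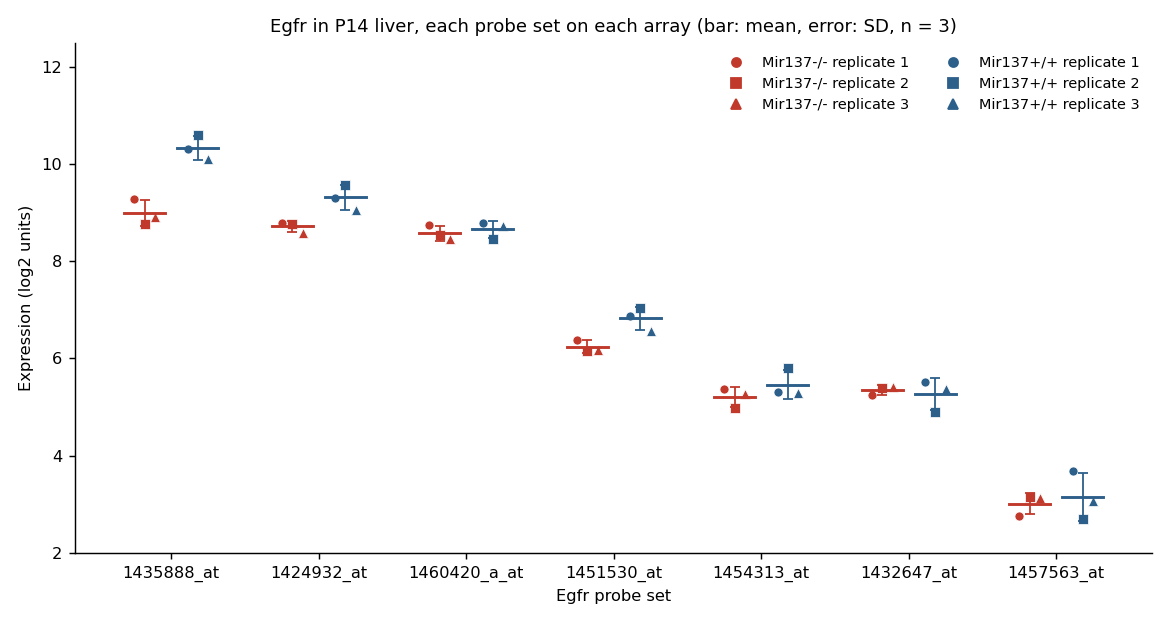
Expression of Egfr in P14 liver (y axis, log2 units) by probe set (x axis), with Mir137-/- arrays in red and Mir137+/+ arrays in blue, a marker for each replicate, bars at the mean and error bars of 1 SD (n = 3 each). On 1435888_at, 1424932_at and 1451530_at all Mir137-/- arrays lie below all Mir137+/+ arrays, whereas the other 4 probe sets overlap.

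The differences of the Egfr probe sets ran from -1.35 to 0.09, and this disagreement is the reason for which each is shown, not a result. The range over the Egfr probe sets was 1.43, against a median range of 0.54 for genes with 7 or more probe sets. For genes with 2 or more it was 0.24. Having only some probe sets called was usual on these arrays, whereas a range as wide as that of Egfr was above these medians. Among genes with 7 or more probe sets and at least 1 called, only some were called in 26 of 26. Among 864 genes that had 2 or more probe sets and at least 1 called, all probe sets were called in 1 direction for 140 and only some for 724 (83.8%). The reference gene table (GRCm38) lists 2 protein-coding RefSeq transcripts for Egfr, and which of them each probe set reads is not given in the sources used here.

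The partner receptors did not separate the genotypes. Erbb2, the receptor without a ligand, read 4.96, 5.12 and 5.01 in Mir137-/- and 5.15, 5.02 and 4.94 in Mir137+/+ liver on its 1 probe set, a difference of -0.01 (SE 0.10). Erbb3, the neuregulin receptor, read 8.76, 9.20 and 8.89 in Mir137-/- and 8.81, 8.91 and 8.95 in Mir137+/+ liver on the brighter probe set 1434606_at, a difference of 0.06 (SE 0.13). Its groups overlapped, with Mir137-/- replicate 2 the highest of the 6 arrays. The dimmer Erbb3 probe set, 1452482_at, read 4.13, 3.87 and 4.08 in Mir137-/- and 3.57, 4.04 and 3.82 in Mir137+/+ liver, a difference of 0.22 (SE 0.14) with overlap.

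Errfi1, the kinase-binding feedback inhibitor, differed little. On 1416129_at it read 12.10, 12.13 and 11.99 in Mir137-/- and 12.33, 12.22 and 12.26 in Mir137+/+ liver. The groups did not overlap, yet the difference of -0.20 (SE 0.09) was far under 1.5-fold. On 1419816_s_at, whose suffix marks probes that can match several transcripts, it read 11.08, 10.93 and 10.99 in Mir137-/- and 11.31, 10.90 and 11.07 in Mir137+/+ liver, a difference of -0.09 (SE 0.12) with overlap.

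Hbegf, the membrane-anchored ligand that is released by metalloproteases, was higher in Mir137-/- liver on both of its probe sets. On 1418350_at it read 5.52, 5.80 and 5.24 in Mir137-/- and 4.56, 4.69 and 4.65 in Mir137+/+ liver, with all knockout arrays above all wild-type arrays. The means were 5.52 ± 0.28 in Mir137-/- and 4.63 ± 0.07 in Mir137+/+ liver (SD, n = 3 each), a difference of 0.89 (SE 0.14) or 185% of the wild-type level. On the brighter 1418349_at it read 6.22, 6.39 and 6.16 in Mir137-/- and 5.79, 5.78 and 5.81 in Mir137+/+ liver, a difference of 0.46 (SE 0.10) or 138%, again without overlap. Mir137-/- replicate 2 was the highest array on both probe sets.

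Betacellulin (Btc), a ligand of EGFR and ErbB4, read 4.30, 4.59 and 4.84 in Mir137-/- and 4.71, 4.44 and 4.54 in Mir137+/+ liver on 1435541_at, a difference of 0.01 (SE 0.15). On 1421161_at it read 2.15, 2.73 and 2.50 in Mir137-/- and 2.43, 2.35 and 2.30 in Mir137+/+ liver, below the lower quartile of the arrays. Both overlapped between the genotypes, and in both Mir137-/- replicate 1 was the lowest array. At the low signal of 1421161_at a difference in Btc may not be detectable. The other probe set, 1435541_at, lay between the lower quartile and the median of the arrays.

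Met, the receptor of hepatocyte growth factor, read 9.48, 9.58 and 9.45 in Mir137-/- and 9.49, 9.44 and 9.39 in Mir137+/+ liver on 1434447_at, a difference of 0.06 (SE 0.09). On 1422990_at it read 6.60, 6.51 and 6.23 in Mir137-/- and 6.67, 6.03 and 6.27 in Mir137+/+ liver, a difference of 0.12 (SE 0.17). Both probe sets overlapped between the genotypes.

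**Figure D2:**
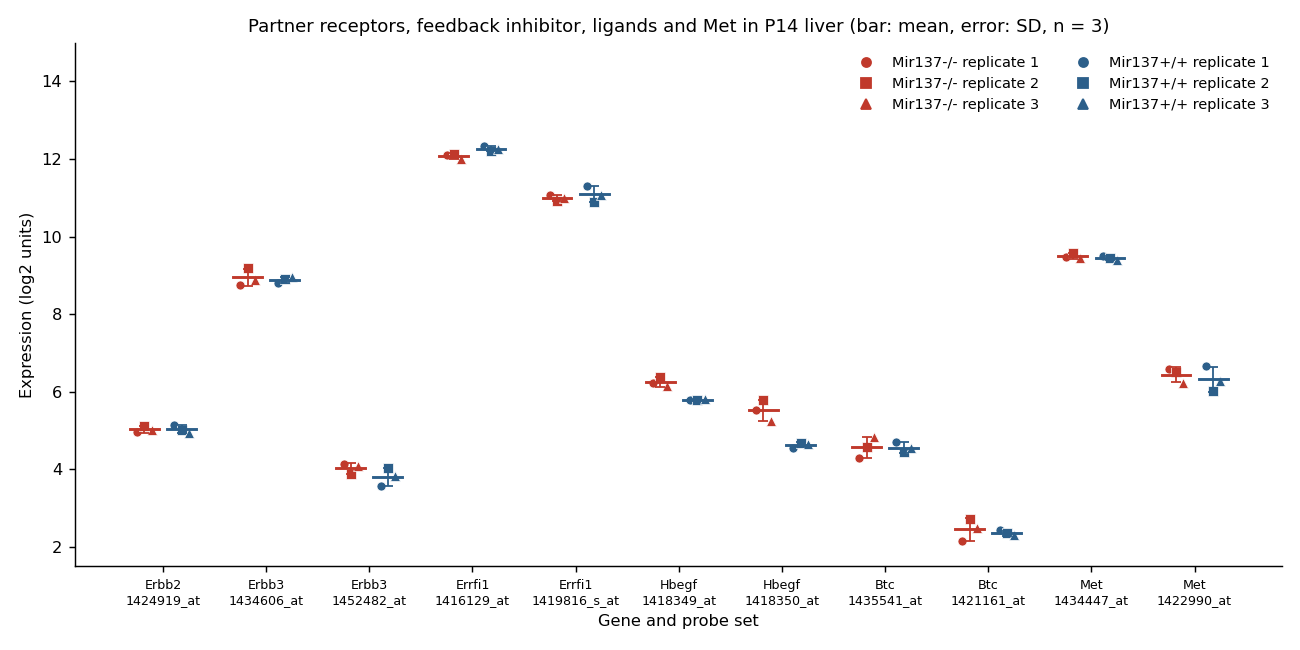
Expression in P14 liver (y axis, log2 units) of the other 11 member probe sets (x axis), with Mir137-/- arrays in red and Mir137+/+ arrays in blue, bars at the mean and error bars of 1 SD (n = 3 each). Both Hbegf probe sets have all Mir137-/- arrays above all Mir137+/+ arrays, Errfi1 1416129_at has them below, and the other 8 overlap.

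The call rule asked for more than 1.5-fold and for a p below 0.05 after Benjamini-Hochberg adjustment over all 45037 probe sets. Of the 18 member probe sets, 1 met this rule as higher (Hbegf 1418350_at), against 1.94% of all probe sets, and 3 met it as lower (Egfr 1435888_at, 1424932_at and 1451530_at), against 2.58% of all probe sets. The remaining 14 did not meet it, with differences from -0.26 to 0.46. Hbegf 1418349_at passed the adjusted p alone and stayed under 1.5-fold. Egfr 1424932_at and 1451530_at lay just beyond 1.5-fold. In 2 of the 18 probe sets all Mir137-/- arrays were above all Mir137+/+ arrays (13.6% of all probe sets) and in 4 they were below (13.9% of all probe sets). Since the genes were selected on this contrast, nothing is read from these counts. The median difference was 0.00 over the 18 probe sets and 0.01 over all probe sets.

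**Figure D3:**
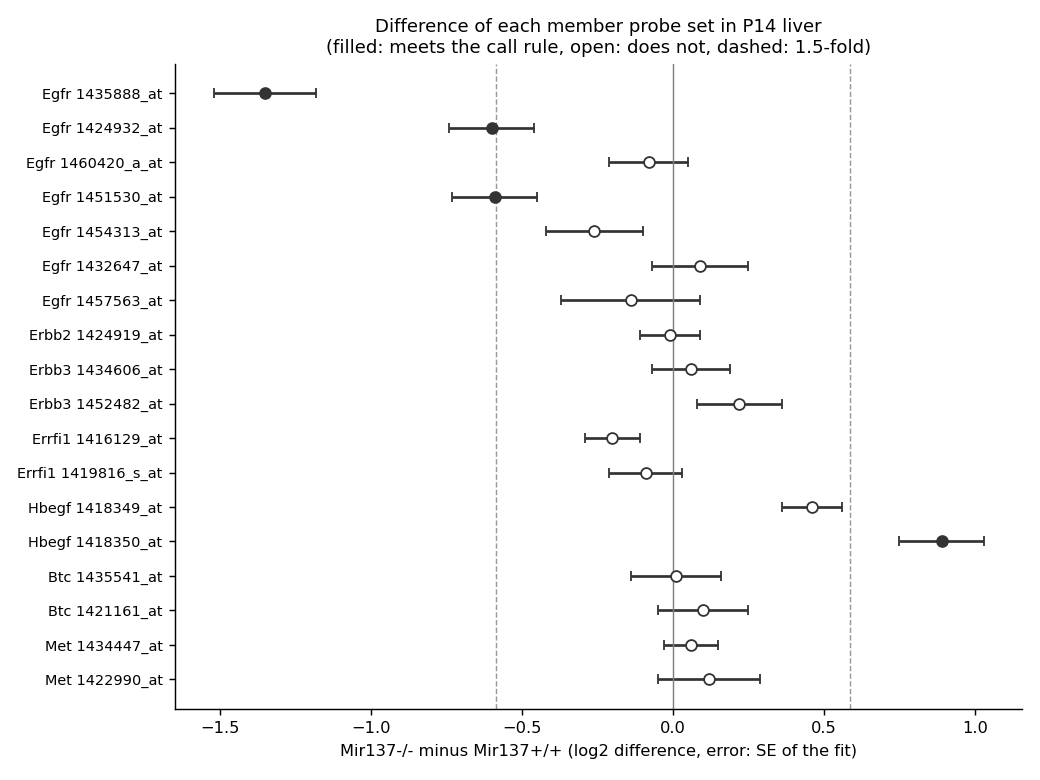
Difference of each member probe set (x axis, Mir137-/- minus Mir137+/+, log2 units, error bars 1 SE of the fit, n = 3 each), with filled points for those that meet the call rule and dashed lines at 1.5-fold. Egfr spans -1.35 to 0.09, Hbegf lies at 0.46 and 0.89, and the remaining points lie between -0.20 and 0.22.

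The called Egfr probe sets and both Hbegf probe sets kept their sign with the arrays used, but some calls were lost. Of the uncalled Egfr probe sets, 1457563_at (-0.36 to 0.13) and 1432647_at (-0.10 to 0.21) changed sign when single arrays were left out. Leaving out each array in turn, Egfr 1435888_at ranged from -1.50 to -1.22 and Hbegf 1418350_at from 0.75 to 1.03, and both met the rule every time. Egfr 1424932_at (-0.73 to -0.46) and 1451530_at (-0.72 to -0.48) met the rule with Mir137+/+ replicate 3 left out, and missed it when any of the other 5 arrays was left out. With a term for sex, read from Xist, which sets the 3 Mir137-/- arrays against Mir137+/+ replicate 1 alone, Egfr 1435888_at was at -1.32 and Hbegf 1418350_at at 0.96, and no member met the rule. All 7 Egfr probe sets were then below 0, from -1.32 to -0.09, and the dimmest, 1457563_at, moved to -0.67. Without both arrays with pancreas transcripts Egfr 1435888_at was at -1.10 and Hbegf 1418350_at at 0.78, and only Egfr 1435888_at met the rule. Egfr 1454313_at, at -0.26 with all arrays, was then at 0.02.

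Markers of the cell types of liver were summed beside these differences. The summed linear signal of 8 hepatocyte markers was 55980 to 58325 in Mir137-/- and 58341 to 58994 in Mir137+/+ liver, and none of them was called. That of 7 Kupffer cell markers was 6389 to 6841 in Mir137-/- and 5617 to 5962 in Mir137+/+ liver, and that of 8 endothelial markers 4509 to 4622 in Mir137-/- and 4159 to 4443 in Mir137+/+ liver, also with none called. The sums of 6 cholangiocyte markers (142 to 159 in Mir137-/- and 147 to 177 in Mir137+/+ liver) and of 8 stellate cell markers (6831 to 7503 in Mir137-/- and 6547 to 6998 in Mir137+/+ liver) overlapped, with 1 of the stellate cell markers lower by the call rule. For 9 markers of blood cell precursors it was 452 to 634 in Mir137-/- and 1157 to 1504 in Mir137+/+ liver, with 5 lower by the call rule. The part of these cells in the Egfr and Hbegf differences was not tested.

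By the Pearson correlation over the 6 arrays, the genes most like Egfr 1435888_at among 19632 probe sets above the median level were Vamp4 (0.998), Ddx5 (0.998), Gbp6 (0.997), Ints2 (0.997) and Stk17b (0.995). All 5 had a lower level in Mir137-/- liver, a direction that follows from how they were picked. Their differences lay between -0.99 for Gbp6 and -0.22 for Ddx5. After the group means were taken out the correlations were 0.94 to 0.99. These are the highest of many values over few arrays, and they serve as a description of the array-to-array pattern of Egfr.

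Other genes of the pathway were counted in lists by textbook role, with 1 probe set per gene. Of 109 listed genes 102 were measured. Of these, 4 rose (3.92%) and 8 fell (7.84%), against 2.34% of all 18193 genes that rose and 3.34% that fell. The median difference was 0.03 over the 102 genes and 0.00 over all genes. Not called were 90 of the 102 pathway genes and 17161 of all genes. The lists were drawn up with earlier results of these data known, so nothing is read from these shares. The limma fit (version 3.58.1) gave the adjusted p values quoted for these genes.

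Among the other EGF-family ligands, 0 rose and 1 fell of 8 (median 0.07). Nrg4, a neuregulin that binds ErbB4, read 5.37, 5.30 and 4.59 in Mir137-/- and 6.77, 6.50 and 6.56 in Mir137+/+ liver, and it fell by 1.52 (SE 0.20, adjusted p = 0.00337). Its other probe set was at -0.98. Nrg4 stayed called whichever array was left out. Without the arrays with high Xist, which leaves 1 wild-type array, it was at -1.68 and not called (adjusted p = 0.103), and the methods' t-test did not call it (adjusted p = 0.0615). None of the 10 genes of ErbB4 and ligand shedding was called in the limma fit (0 rose, 0 fell, median 0.06). In that fit 2 of them had an unadjusted p below 0.05. The share of all genes at that p was not counted, so nothing is read from it. Of the 10 genes, the metalloproteases Adam9 and Adam10 were at 0.08 (adjusted p = 0.545) and -0.19 (adjusted p = 0.312). Both are known for cleaving membrane-anchored ligands.

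On the HGF side of the Met axis, 1 rose and 0 fell of 10 (median 0.08). Mst1r, the receptor of macrophage-stimulating protein and a relative of Met, read 5.16, 5.05 and 5.01 in Mir137-/- and 3.97, 4.40 and 4.46 in Mir137+/+ liver, and it rose by 0.80 (SE 0.14, adjusted p = 0.0102). It stayed called whichever array was left out. The methods' t-test did not call it (adjusted p = 0.0787). Without the arrays with pancreas transcripts it was at 0.87 and not called in the limma fit (adjusted p = 0.0746). Its probe set lay between the lower quartile and the median of the arrays. Hgf, the ligand of Met, was at -0.04 (adjusted p = 0.905).

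Signal transducers downstream of the receptors were counted in separate lists. Of 15 measured adaptors and RAS-ERK genes 0 rose and 1 fell (median 0.07), and of 15 measured genes of the PI3K, PLC-gamma, SRC and STAT branch 2 rose and 1 fell (median 0.07). Sos1, the exchange factor that activates RAS, fell by 0.64 (SE 0.09, adjusted p = 0.00379), with 7.38, 7.35 and 7.35 in Mir137-/- and 7.89, 8.02 and 8.10 in Mir137+/+ liver. Prkca, a protein kinase C, rose by 0.79 (SE 0.09, adjusted p = 0.00188), with 7.50, 7.67 and 7.61 in Mir137-/- and 6.75, 6.90 and 6.76 in Mir137+/+ liver. The SH2 adaptors Nck1 and Nck2 went in opposite directions. Nck1 fell by 0.59 (SE 0.09, adjusted p = 0.00568), with 7.16, 7.10 and 7.29 in Mir137-/- and 7.82, 7.73 and 7.76 in Mir137+/+ liver, and Nck2 rose by 0.71 (SE 0.09, adjusted p = 0.003), with 7.75, 7.72 and 7.94 in Mir137-/- and 7.07, 7.13 and 7.08 in Mir137+/+ liver. Nck1 missed the rule when Mir137-/- replicate 1 (-0.58), Mir137-/- replicate 2 (-0.55) or Mir137+/+ replicate 1 (-0.56) was left out.

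The further probe sets of these transducers gave smaller differences or the opposite sign, and none of them was called. The other probe sets lay between -0.26 and 0.11 for Sos1, between -0.14 and 0.29 for Prkca, between 0.07 and 0.36 for Nck1 and between 0.29 and 0.39 for Nck2. When each gene's probe sets were averaged instead, Sos1 (-0.20), Prkca (0.32), Nck1 (-0.05) and Nck2 (0.46) were not called.

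Of 24 genes for receptor turnover and feedback, 0 rose and 2 fell (median -0.07). Socs4, a SOCS protein known for promoting degradation of EGFR, read 6.87, 6.92 and 7.02 in Mir137-/- and 7.66, 7.65 and 7.81 in Mir137+/+ liver, and it fell by 0.77 (SE 0.09, adjusted p = 0.00201). Its 3 other probe sets lay between -0.19 and 0.03, and their mean with it (-0.23) was not called. Spry4, an ERK-induced inhibitor of receptor signalling, read 5.87, 5.68 and 5.87 in Mir137-/- and 6.86, 6.14 and 6.64 in Mir137+/+ liver, and it fell by 0.74 (SE 0.18, adjusted p = 0.0335). Of its 3 other probe sets, 1 was at -1.33 and called, and the other two were at -0.19 and -0.23. Leaving out Mir137-/- replicate 3 (-0.77), Mir137+/+ replicate 1 (-0.58) or Mir137+/+ replicate 3 (-0.69) ended its call. With Mir137-/- replicate 1 or Mir137-/- replicate 2 left out it stayed called at -1.22, since another of its probe sets was then the brightest.

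Immediate-early and ERK target genes included 1 that rose and 3 that fell of 20 (median -0.11). Egr1, the zinc finger factor induced by ERK signalling, read 8.21, 8.29 and 8.95 in Mir137-/- and 10.75, 10.03 and 9.52 in Mir137+/+ liver, and it fell by 1.62 (SE 0.31, adjusted p = 0.0166). The immediate-early gene Ier2 fell by 0.76 (SE 0.12, adjusted p = 0.00798), with 7.72, 7.98 and 7.81 in Mir137-/- and 8.78, 8.62 and 8.39 in Mir137+/+ liver, and the ephrin receptor Epha2 fell by 0.63 (SE 0.11, adjusted p = 0.0123), with 7.38, 7.24 and 7.46 in Mir137-/- and 7.79, 8.09 and 8.09 in Mir137+/+ liver. Ier3, another immediate-early gene, went the other way and rose by 0.90 (SE 0.18, adjusted p = 0.0193), with 5.71, 6.24 and 5.52 in Mir137-/- and 4.78, 5.07 and 4.93 in Mir137+/+ liver. The groups of these 4 genes did not overlap, which also held for the other called pathway genes and adds little to the calls. Fos, the archetype of the class, was at 0.05 (SE 0.40, adjusted p = 0.958) and was named outside the rule for its role.

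With fewer arrays, some of these calls were lost although the differences were of similar size. The call of Egr1 was lost when Mir137-/- replicate 1 (-1.48), Mir137-/- replicate 2 (-1.52) or Mir137+/+ replicate 2 (-1.65) was left out. With all 6 arrays Egr1 was also not called by eBayes with trend and robust (adjusted p = 0.074). The methods' t-test did not call it either (adjusted p = 0.124), nor Ier2, Epha2 and Ier3. The call of Epha2 was lost on leaving out Mir137-/- replicate 2 (-0.57), Mir137+/+ replicate 2 (-0.58) or Mir137+/+ replicate 3 (-0.58). That of Ier3 was lost on dropping Mir137+/+ replicate 1 (0.82) or Mir137+/+ replicate 3 (0.90). Ier2, Sos1, Prkca, Nck2 and Socs4 stayed called whichever array was left out. With sex as a term, which rests on 1 wild-type array, 6 of the 12 called pathway genes met the rule, and without the arrays with high Xist, where the differences are the same, only Mst1r did.

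With no fold threshold, 9 pathway genes rose and 12 fell of 102, against 5.06% of all genes that rose and 6.90% that fell at an adjusted p below 0.05 alone. The 9 genes that this adds lay under 1.5-fold and were picked with their values known. The higher ones were the EGFR ligands Tgfa (0.33, adjusted p = 0.0372) and Egf (0.32, adjusted p = 0.0471), the adaptor Shc1 (0.43, adjusted p = 0.0314), the iRhom Rhbdf1 (0.48, adjusted p = 0.0277), which is known for guiding the sheddase ADAM17, and the ubiquitin ligase Cblb (0.45, adjusted p = 0.0221). The 2 other probe sets of Tgfa were at -0.10 and -0.03. The lower ones were the receptor inhibitors Lrig1 (-0.38, adjusted p = 0.0299) and Lrig3 (-0.49, adjusted p = 0.032), the SOCS protein Socs5 (-0.53, adjusted p = 0.0233) and the protease hepsin, Hpn (-0.45, adjusted p = 0.0111), which is known for activating HGF. The other probe set of Socs5 was at -0.85, and with its probe sets averaged Socs5 was called (-0.69). Further probe sets lay at 0.28 for Shc1, at 0.38 and 0.55 for Cblb, at -0.21 and -0.06 for Lrig1 and at -0.19 and -0.16 for Lrig3.

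**Figure D4:**
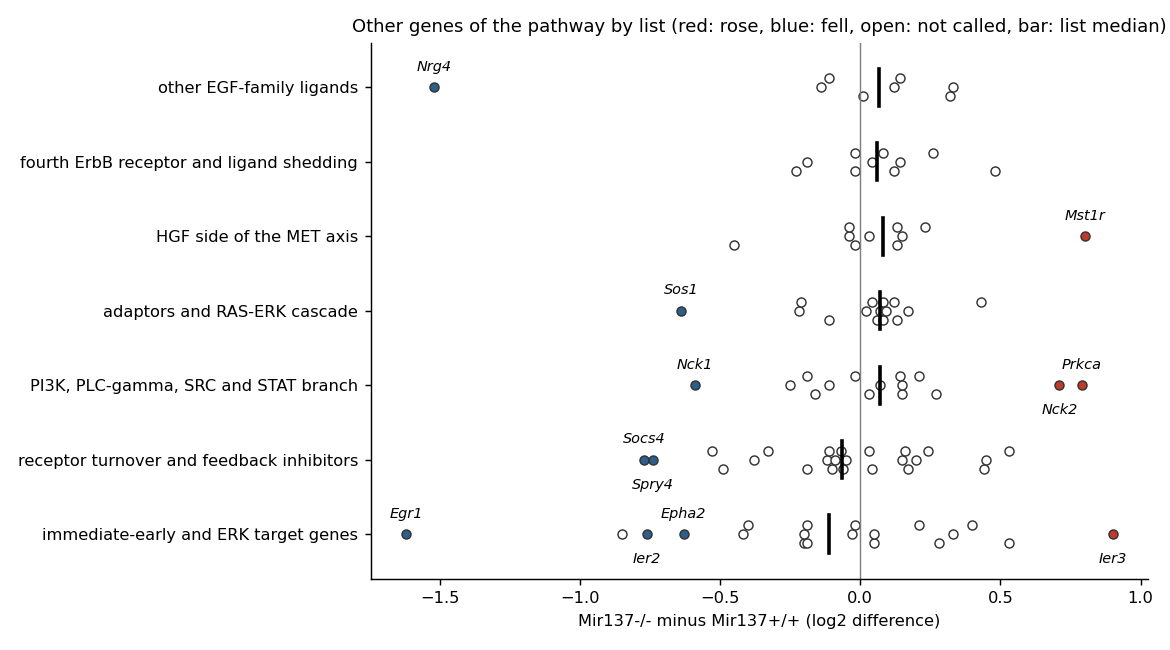
Difference of each measured pathway gene (x axis, Mir137-/- minus Mir137+/+, log2 units, 1 probe set per gene) by list (y axis), with genes that rose in red, genes that fell in blue, open points for genes not called and a bar at each list's median. The list medians lie between -0.11 and 0.08, and Egr1 (-1.62) and Nrg4 (-1.52) lie farthest from them.

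**Figure D5:**
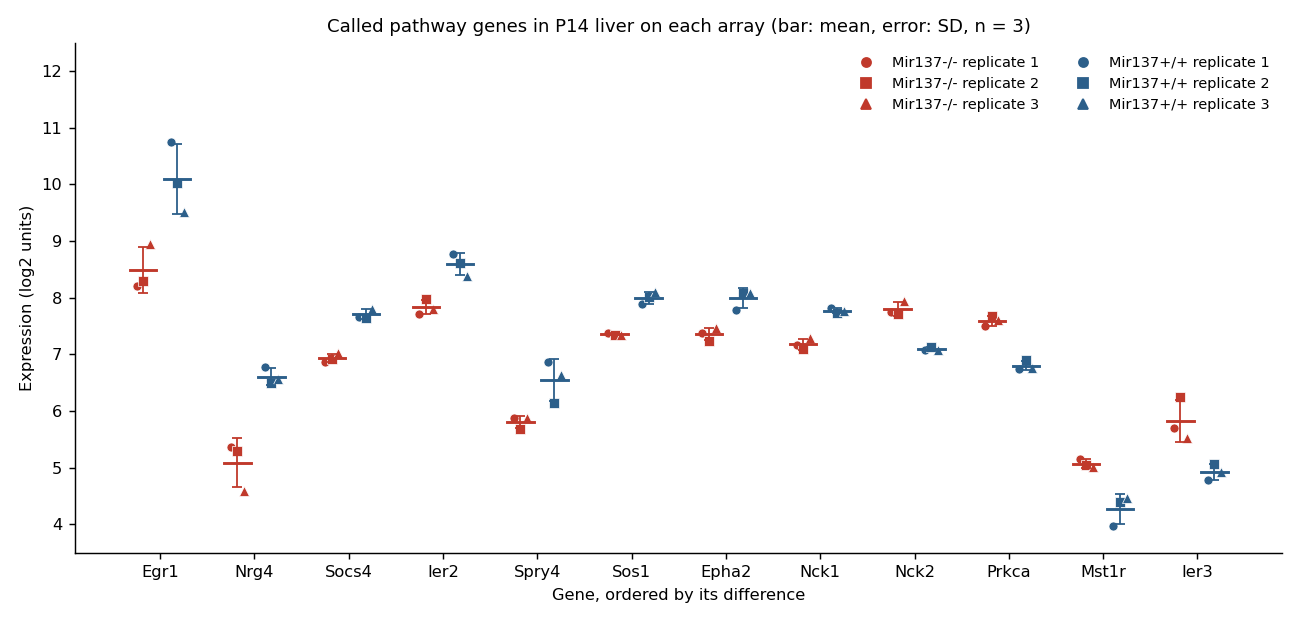
Expression in P14 liver (y axis, log2 units) of the 12 called pathway genes (x axis, from the lowest difference to the highest), with Mir137-/- arrays in red and Mir137+/+ arrays in blue, bars at the mean and error bars of 1 SD (n = 3 each). The 8 genes that fell have all Mir137-/- arrays below all Mir137+/+ arrays, and the 4 that rose have them above.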

How the data were processed

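Liver RNA of 3 Mir137-/- and 3 Mir137+/+ mice was amplified in a double-cycle protocol and hybridised to an Affymetrix mouse array that covers the whole genome. The deposited log2 values were probe set summaries made by the authors. The methods name RMA with a baseline-to-mean step and the labels name GCRMA, so which of them made the values is not settled here. They were used as deposited. Groups came from the genotype in the labels. The genes and lists were chosen with earlier results of these data known. Of 45101 probe sets, 64 controls were left out. Of the 45037 tested, 34945 had 1 gene symbol, 932 several and 9160 none in the platform annotation. Each of 18193 genes was represented by its brightest probe set (mean of all 6 arrays).

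The contrast Mir137-/- minus Mir137+/+ was fitted with lmFit and eBayes (limma 3.58.1, R 4.3.3), without covariates. Calls needed more than 1.5-fold and a p below 0.05 after Benjamini-Hochberg adjustment. SE is that of the moderated fit over probe sets or over genes. The fit was tested on simulated data. The number of arrays limits the precision. The labels do not give a litter for each mouse, so p values measure the spread between these samples.

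Named genes were all members, called pathway genes, for lists without calls the 2 genes of highest mean, and the 5 probe sets most correlated with the brightest Egfr probe set. Hgf and Fos were named for their roles, after their values were seen. Alternatives were quantile normalization, a filter on the 40% dimmest probe sets, eBayes with trend and robust (statmod 1.5.0), the methods' t-test and no fold threshold. Further ones were leaving out _s_at and _x_at probe sets, the replicate number as a block (a fixed term in the fit) and sex as a term. The rest were leaving out arrays with high Xist or with pancreas transcripts, averaging a gene's probe sets, and leaving out each array. Promoters and the microRNA came from RefSeq tables (GRCm38.p6).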

Additional observations from a re-analysis of the deposited data

How the results depend on the processing

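The precision of all values is limited by 3 arrays per genotype. Under the alternatives, every Egfr 1435888_at difference stayed below 0 and every Hbegf difference above 0, whereas the number of calls depended on the setting. Of the 18 member probe sets, 4 met the call rule as reported, 2 did with quantile normalization, 0 with the methods' t-test after adjustment, 0 with sex as a term, 0 without the arrays with high Xist and 1 without the arrays with pancreas transcripts. With the t-test, 6 member probe sets had an unadjusted p below 0.05. The share of all probe sets at that p was not counted, so nothing is read from it. With sex as a term, and likewise without the arrays with high Xist, Egfr 1435888_at was at -1.32 and Hbegf 1418350_at at 0.96. Leaving out each array in turn gave 2 to 4. For the pathway genes the count was 12 as reported, 5 with the methods' t-test, 21 with no fold threshold, 7 with sex as a term, 1 without the arrays with high Xist and 6 without the arrays with pancreas transcripts, and 9 to 12 when each array was left out. Over all probe sets it was 2036 as reported, 475, 3481, 642, 282 and 967 under the same 5 settings in that order, and 1485 to 2199 when each array was left out. Among probe sets that overlapped between the genotypes, those that moved most with sex as a term were Egfr 1457563_at (-0.67, against -0.14 as reported), Met 1422990_at (-0.22, against 0.12), Egfr 1432647_at (-0.17, against 0.09) and Erbb3 1452482_at (0.46, against 0.22). The cause was not tested, except that the last 3 settings use fewer arrays for the contrast.

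Samples of the same replicate number correlated in their deviations from the group means at 0.08, 0.21 and 0.00. Those of different numbers correlated at -0.15 to 0.08. So few values cannot settle whether the number pairs the samples. With the replicate number as a block, 1917 probe sets were called in all, 3 member probe sets met the rule (Egfr 1451530_at no longer did) and 12 pathway genes were called.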

Other observations

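Of the 12 called pathway genes, 7 had further probe sets, and for 4 of them (Sos1, Prkca, Nck1 and Socs4) at least 1 other probe set had the opposite sign. When the probe sets of each gene were averaged, 2 of the 7 were called again, Nrg4 and Spry4.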
